A study of Arabidopsis thaliana with 8 samples.

Results

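The genes described here are the 60 Arabidopsis loci, in 25 families, that encode proteins of the small (40S) subunit of the cytosolic ribosome. They were followed in vegetative apices with leaf primordia, dissected at 20 days from short-day plants (8 h of light, 16 h of darkness, 23 °C, on soil). A member was measured where the array carried a probe set assigned to that gene alone, and the probe set with the highest mean was to be kept. Of the 60 loci, 35 had such a probe set, 1 each, out of 13286 genes with a single-gene probe set in all. A further 11 loci were represented only by 5 probe sets that several genes share, and 14 had no listed probe set. The 34 members with a log2 signal of at least 4 on at least 2 arrays were tested, out of 7498 such genes, and these covered 19 of the families.

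The study compared 4 genotypes with 2 Affymetrix ATH1 arrays each, lettered A and B: wild-type Col-0, 35S:GIF1, rGRF3, and rGRF3x35S:GIF1, called the double line below. 35S:GIF1 overexpresses GIF1, a partner protein that helps GRF transcription factors switch on their targets, from the broadly active 35S promoter. rGRF3 is labelled a GRF3 overexpressor, and in published work the name stands for GRF3 with an altered miR396 target site, which escapes that microRNA. The labels give neither a promoter for rGRF3 nor the number of plants in a sample, and they do not say whether a genotype was 1 transgenic line or what the letters mark. Neither GIF1 nor GRF3 had a listed probe set in the annotation used here, so their levels did not check the genotype labels.

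Each ribosome has a small subunit, which binds mRNA and reads its codons, and a large (60S) subunit, which joins amino acids. The small subunit is built from ribosomal RNA and a set of proteins, and it is described by its regions: the head, with its beak, and the body, with its platform. Plants carry several gene copies, or paralogs, for nearly every ribosomal protein. Dividing cells of meristems and young leaf primordia need many ribosomes, and ribosomal protein transcripts are abundant there. Family names and the region of each protein follow general knowledge of ribosome structures, best known from yeast and wheat, because the annotation used here lists these genes by locus identifier alone.

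The arrays were alike in the share of probe sets at a log2 signal of 4 or more, which ran from 60.2% to 60.7%. The leaf primordium gene YAB3 had a log2 signal of 8.41 to 8.89. The meristem gene CLV3 lay at the floor of the scale, 2.12, on every array, and the other meristem markers had no listed probe set. PYK10, listed as a root marker, had a signal of 11.65 and 12.20 in Col-0 and of 12.58 and 12.70 in the double line (adjusted p = 0.714, limma). It read 12.31 and 12.39 in 35S:GIF1 and 12.32 and 12.74 in rGRF3. The guard cell regulator FMA had 5.99 and 5.52 in Col-0 against 5.09 on both arrays of the double line (adjusted p = 0.714, limma). Of the other tested trichome and guard cell genes, MUTE differed in the double line from Col-0 by -0.52 and SPCH by -0.17. TRY differed by -0.03, and by 0.07 in letter A. The part of these markers in the results below was not tested. A control probe set for the 25S ribosomal RNA read 10.90 on the double line's letter A array and between 6.22 and 8.23 on the other 7. In dissected tissue, fewer cells of a type and less RNA per cell cannot be told apart.

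On the letter B arrays nearly all of the 40S genes had their lowest signals in the plants carrying rGRF3, alone or with 35S:GIF1. In letter B, 31 of the 34 tested members lay lower on both rGRF3-carrying arrays than on both arrays without rGRF3, against 28.3% of all 14005 tested probe sets. No member lay higher on both, against 23.9%. In letter A, 7 of 34 members lay lower on both (20.6% of all tested) and 0 lay higher on both (18.6%). That letter A count was 20 without the Col-0 array, 18 without the rGRF3 array and 13 without the double line array, since fewer arrays then had to be ordered. The share of all tested probe sets was not computed with an array left out, so these counts cannot be set against the 20.6%. The mean difference between arrays with and without rGRF3 had a median over the members of -0.22 on the log2 scale in letter B, a ratio of 0.857, and of -0.05 in letter A, a ratio of 0.966. The medians over all tested probe sets were -0.01 in either letter. No member passed the test of this difference, as described below, so the pattern rests on the counts. All members were read on the same 4 arrays of a letter, so the genes are not independent replicates of the comparison.

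**Figure D1:**
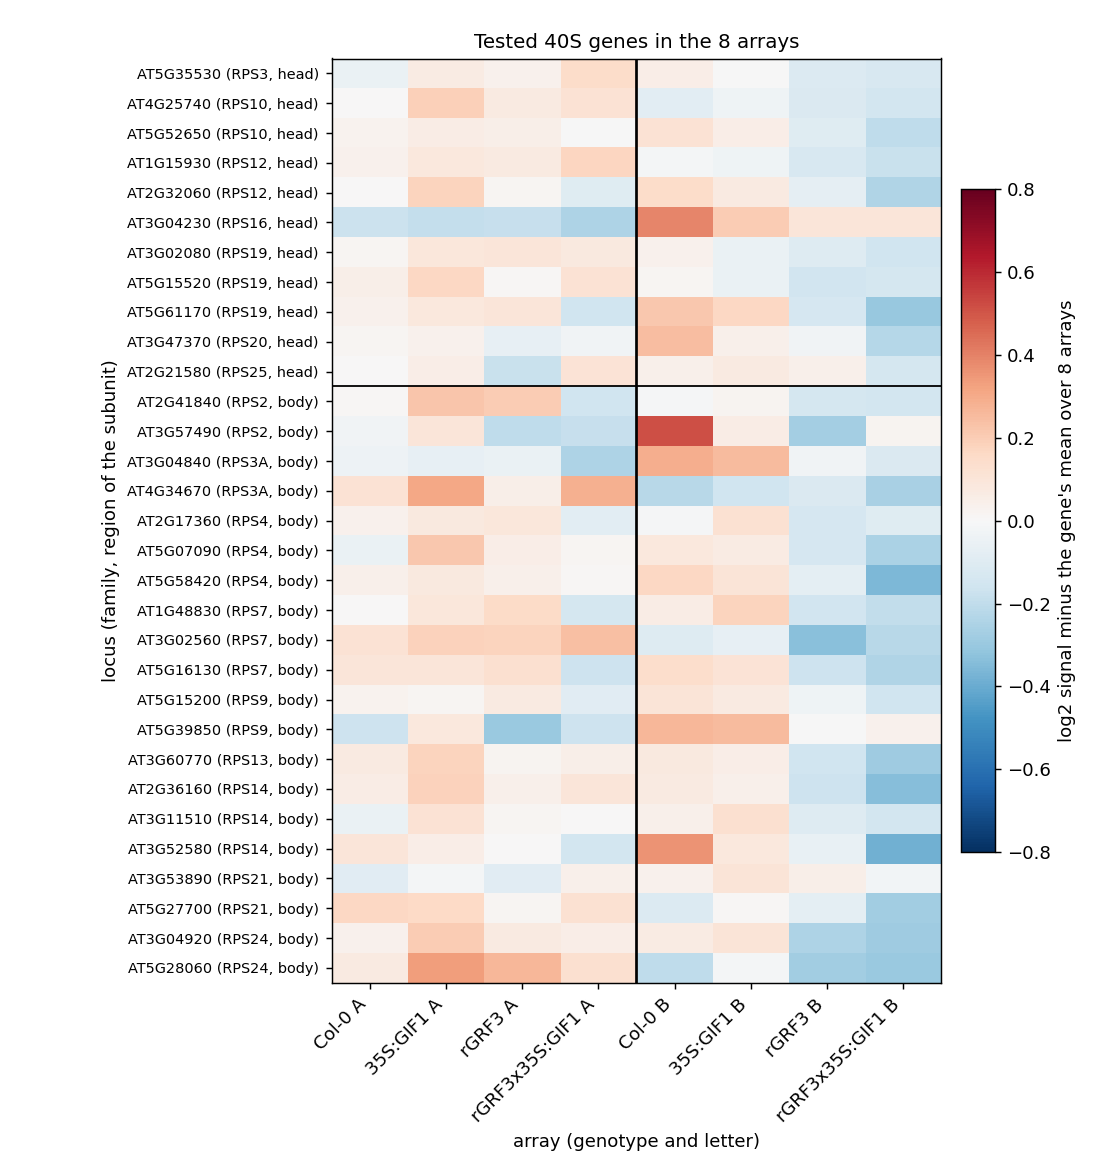
Log2 signal of 31 tested 40S genes minus each gene's own mean over the 8 arrays (colour scale), with 1 row per gene, head proteins above the horizontal line and body and platform proteins below it, and 1 column per array, letter A to the left of the vertical line. The rGRF3 B and rGRF3x35S:GIF1 B columns are blue in nearly all rows, with a median over the 34 tested members of -0.12 and -0.19, while the 4 letter A columns have such medians between -0.00 and 0.09.

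**Figure D2:**
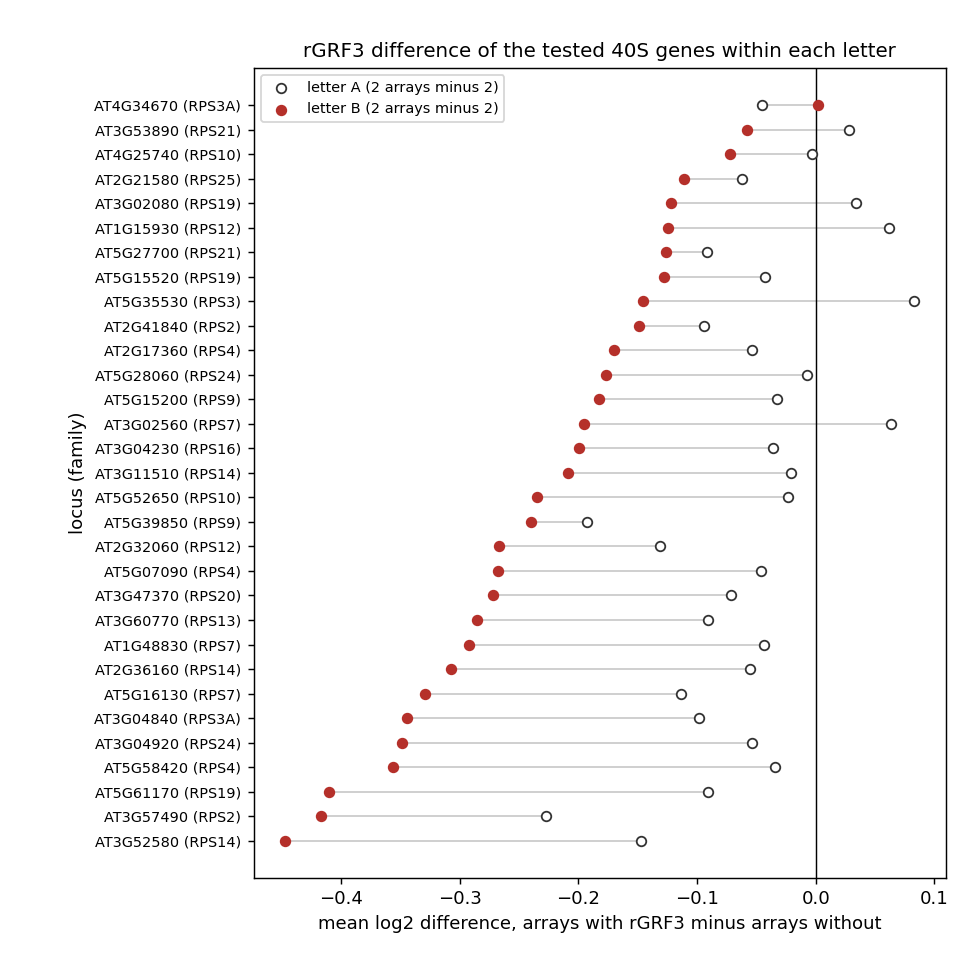
Mean log2 signal of the 2 arrays with rGRF3 minus that of the 2 arrays without it, for 31 tested 40S genes (rows), in letter A (open points) and letter B (filled points). The letter B points lie below 0 for 30 of these 31 genes and the letter A points for 26, and the letter B value is the lower of the pair for 30.

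AT3G52580 of the RPS14 family encodes a platform protein near the mRNA exit that is also needed for maturation of the small-subunit RNA in yeast. In letter A its log2 signal was 12.53 for Col-0, 12.49 for 35S:GIF1, 12.44 for rGRF3 and 12.29 for the double line. In letter B it was 12.80, 12.52, 12.37 and 12.05 in the same order. The double line lay lowest and Col-0 highest within either letter, and its double line arrays lay below every other array. The double line minus Col-0 difference was -0.50 ± 0.16 (SE, n = 2 arrays each; adjusted p = 0.714 by limma, and 0.204 with the letter as a block), the largest among the members.

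AT3G57490 of the RPS2 family, whose protein lines the mRNA entry channel, had log2 signals of 9.45, 9.58, 9.28 and 9.30 in letter A and 10.002, 9.55, 9.21 and 9.50 in letter B, in the order Col-0, 35S:GIF1, rGRF3 and double line. The rGRF3-carrying arrays were the lower pair within each letter, though the double line's letter B array lay above Col-0 A. AT3G52580, AT3G57490, AT3G60770 of the RPS13 family, AT3G47370 of the RPS20 family and AT5G27700 of the RPS21 family were among the 7 members with both rGRF3-carrying arrays below both others in letter A.

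The exceptions in letter B were AT4G34670 of the RPS3A family and the RPS21 genes AT3G53890 and AT5G27700. AT3G53890 encodes a small body protein, and its log2 signal was 12.92, 13.00, 12.92 and 13.05 for Col-0, 35S:GIF1, rGRF3 and the double line in letter A and 13.05, 13.11, 13.06 and 12.99 in letter B. The arrays of the 4 genotypes overlapped throughout. AT5G27700 had 14.004, 13.997, 13.86 and 13.96 in letter A and 13.73, 13.85, 13.76 and 13.56 in letter B. In letter B its rGRF3 array lay above Col-0, by 0.03.

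The letter B pattern was also seen on probe sets that could not be assigned to 1 gene. All 5 probe sets shared by several of the listed loci lay lower on both rGRF3-carrying letter B arrays than on the other 2, by mean log2 differences of -0.10 to -0.23. Of all tested probe sets 28.3% lay lower on both. In letter A the mean differences of these 5 ran from -0.20 to 0.03. Among the 75 tested genes for proteins of the 60S subunit, 67 lay lower on both rGRF3-carrying arrays than on both others in letter B. This compares with 28.3% of all tested probe sets. In letter A 19 of the 75 did so, against 20.6%, a count closer to the share of all tested probe sets. Whether the 40S and 60S genes differ was not tested. Head proteins (12 genes) had a median difference with rGRF3 of -0.17 in letter B, and body and platform proteins (22 genes) one of -0.25. In letter A these medians were -0.04 and -0.05, and whether the regions differ was not tested.

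Other bright probe sets had a smaller difference of the same sign. The 453 other probe sets with a mean log2 signal of 12 or more had a median difference with rGRF3 of -0.03 in letter A and -0.07 in letter B. Without the single-gene probe sets of the listed ribosomal protein genes, the remaining 402 had medians of -0.03 and -0.05. Probe sets shared by several ribosomal protein genes, such as those described above, were not taken out of the 402. The part of signal height in the members' differences was not tested.

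In a fit with the letter as a block and the 4 rGRF3-carrying arrays set against the 4 others, a comparison chosen after the values were seen, all 34 members had a lower mean with rGRF3, against 52.2% of all tested probe sets. The median was -0.13, a ratio of 0.917. With quantile normalisation 29 members were lower, with a median of -0.098. No member passed (lowest adjusted p = 0.202, limma), against 0.00714% of all tested probe sets that passed lower and 0.0714% that passed higher. Before adjustment, 8 of 34 members were lower at a p under 0.05, against 9.54%. Among the members nearest to the threshold were AT3G52580, at -0.30 ± 0.10 (SE, n = 4 arrays each; adjusted p = 0.204, limma), and AT5G39850 of the RPS9 family, at -0.22 ± 0.08 (adjusted p = 0.224, limma).

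Whether the rGRF3 difference itself differed between the letters was tested as a term in the model. The term, letter B minus letter A, was negative for 33 of 34 members, against 50.5% of all tested probe sets, and its median was -0.19. It passed for 0 members (lowest adjusted p = 0.748, limma) and for 0% of all tested probe sets in either direction. At an unadjusted p under 0.05 it was negative for 1 member, against 3.17%. A difference of the rGRF3 effect between the letters was therefore not shown for any single gene.

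Each line was then compared with Col-0 in the fit planned for the study, which leaves out the letter. No 40S gene passed in any of the 6 genotype contrasts at an adjusted p of 0.05 in limma, nor with an ordinary linear model. Of all tested probe sets 0% passed lower in each of the 6, and 0% or 0.00714% passed higher. The contrasts with Col-0 share its arrays, and their values are given side by side for that reason.

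With 35S:GIF1 alone, the 40S genes had a median log2 difference from Col-0 of 0.03, and 13 of 34 lay lower, against 52.1% of all tested probe sets. None was lower at an unadjusted p under 0.05 (0 of 34, against 0.586%). Within letter A 8 of 34 lay lower (52.5%) and within letter B 22 (50.5%), with medians of 0.07 and -0.03. Differences of -0.3 or lower were held by 0 members in letter A (10.5%) and 1 in letter B (14.7%), AT3G57490. Both 35S:GIF1 arrays lay above both Col-0 arrays for 6 members (9.23%) and below them for 1 (9.77%). The medians in the letters had opposite signs. The overall median was -0.0045 without Col-0 A, with 17 members lower, and 0.069 without Col-0 B, with 5 lower. It was 0.0026 without 35S:GIF1 A and 0.061 without 35S:GIF1 B, and with the arrays centred it was 0.065, with 6 lower. No direction is therefore given for the members in this contrast.

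With rGRF3 alone, the median difference from Col-0 was -0.10, a ratio of 0.936, and 29 of 34 members lay lower, against 54.3% of all tested probe sets. Lower at an unadjusted p under 0.05 were 0 members (1.7%). Within letter A 15 members lay lower (53.7%), with a median of 0.01, and within letter B 31 (52.9%), with a median of -0.22. Differences of -0.3 or lower were held by 0 members in letter A (14.2%) and 8 in letter B (20.1%). Both rGRF3 arrays lay below both Col-0 arrays for 7 members (14%) and above for 0 (11.5%). Without rGRF3 B the overall median was -0.022, with 19 members lower, and without Col-0 B it was -0.056, with 26 lower. It was -0.15 without rGRF3 A, and -0.060 with quantile normalisation. Among the largest differences was that of AT3G57490, -0.48 ± 0.20 (SE, n = 2 arrays each), which did not pass in limma (adjusted p = 0.999994).

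In the double line the 40S genes had a median difference from Col-0 of -0.16, a ratio of 0.896, and 29 of 34 lay lower, against 51.5% of all tested probe sets. At an unadjusted p under 0.05, 1 member was lower, AT3G52580, against 3.01%. Within letter A 18 members lay lower (50.2%), with a median of -0.03, and within letter B all 34 did (51.1%), with a median of -0.26. Differences of -0.3 or lower were held by 0 members in letter A (14.9%) and 15 in letter B (22.5%). Both double line arrays lay below both Col-0 arrays for 14 members (16.6%) and above for 0 (15.8%). The overall median was -0.080 without the double line's B array, with 19 members lower.

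The 4 members with the largest negative difference in the double line included AT3G52580 and AT5G61170 of the RPS19 family. AT5G61170 differed by -0.36 ± 0.15 (SE, n = 2 arrays each; adjusted p = 0.758, limma). The 4 members at the upper end differed by between 0.01 and 0.07, and they were AT4G34670, AT3G53890, AT4G25740 and AT5G35530. AT4G25740 of the RPS10 family, a protein of the head's beak, had log2 signals of 11.49, 11.68, 11.56 and 11.60 for Col-0, 35S:GIF1, rGRF3 and the double line in letter A and 11.41, 11.45, 11.37 and 11.34 in letter B. AT5G35530 of the RPS3 family, a head protein at the mRNA entry, had 13.18, 13.29, 13.26 and 13.37 in letter A and 13.28, 13.22, 13.12 and 13.10 in letter B. For both genes the double line lay above Col-0 in letter A and below it in letter B.

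Set against 35S:GIF1 instead of Col-0, a comparison without the Col-0 arrays, the double line was lower for all 34 members, against 49.7% of all tested probe sets, with a median of -0.19 (ratio 0.876). At an unadjusted p under 0.05, 0 members were lower (1.14%). Within letter A 29 members lay lower (47.8%), with a median of -0.09, and within letter B all 34 did (50.6%), with a median of -0.26. Differences of -0.3 or lower were held by 1 member in letter A (9.18%) and 13 in letter B (14.8%). Both double line arrays lay below both 35S:GIF1 arrays for 20 members (14.6%) and above for 0 (14.1%). Without the double line's B array the overall median was -0.093, with 25 members lower, and with quantile normalisation 28 were lower. AT5G61170 had the largest difference, -0.36 ± 0.15 (SE, n = 2 arrays each; limma, not passed).

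Set against rGRF3, the double line had a median difference of -0.05, and 23 of 34 members lay lower, against 46.9% of all tested probe sets. Unadjusted, 0 members were lower at a p under 0.05 (0.536%). The medians were -0.02 in letter A and -0.06 in letter B, and the overall median was -0.17 without the double line's A array and 0.034 without its B array. Both double line arrays lay below both rGRF3 arrays for 6 members (9.37%) and above for 1 (12.1%). The interaction (how far the effect of 35S:GIF1 in rGRF3 plants departs from its effect in the wild type) had a median of -0.09 and was negative for 24 of 34 members, against 46.5%. It was negative at an unadjusted p under 0.05 for 0 members (0.336%). Over the 4 arrays with and the 4 without 35S:GIF1, 19 of 34 members lay lower with it (49.6%), with a median of -0.01, and 0 passed (lowest adjusted p = 0.797, limma), against 0.00714% in either direction.

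With the letter as a replicate block, no member passed in any of the 6 contrasts, where 0% of all tested probe sets passed lower and between 0% and 0.0357% passed higher. The lowest adjusted p of a member was 0.204 in the double line and 0.415 in rGRF3, each against Col-0, and 0.579 in the double line against 35S:GIF1 (limma). At an unadjusted p under 0.05 the members that were lower numbered 4 (9.03% of all tested probe sets), 1 (5.98%) and 1 (3.78%) in these contrasts. In 35S:GIF1 against Col-0 (2.86%), the double line against rGRF3 (2.06%) and the interaction (1.27%) they numbered 0.

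All 3 transgenic lines lay below Col-0 in both letters for 5 members, against 11.8% of all tested probe sets, and above it for 0 (9.78%). The 5 included AT3G52580, with AT3G04840 of the RPS3A family and AT3G04230 of the RPS16 family. RPS16 is a head protein whose tail reaches the bound tRNA. AT3G04230 had log2 signals of 7.23, 7.21, 7.21 and 7.15 for Col-0, 35S:GIF1, rGRF3 and the double line in letter A and 7.79, 7.60, 7.49 and 7.496 in letter B. The differences from Col-0 within letter A were at most 0.08.

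The families with the widest spread of double line minus Col-0 differences between paralogs were RPS14 (0.43), RPS3A (0.37), RPS7 (0.33) and RPS19 (0.31). They are shown for that spread, and whether their paralogs differ from each other in this contrast was not tested. In the RPS14 family AT3G52580 differed by -0.50, AT2G36160 by -0.19 and AT3G11510 by -0.07. AT2G36160 had log2 signals of 12.67, 12.80, 12.65 and 12.71 in letter A and 12.69, 12.65, 12.45 and 12.28 in letter B, in the order Col-0, 35S:GIF1, rGRF3 and double line. AT3G11510 had 13.17, 13.34, 13.24 and 13.23 in letter A and 13.26, 13.35, 13.12 and 13.07 in letter B. All 3 paralogs had their lowest signal on the double line's letter B array, and in letter A AT3G52580 alone lay below Col-0 in all 3 lines.

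**Figure D3:**
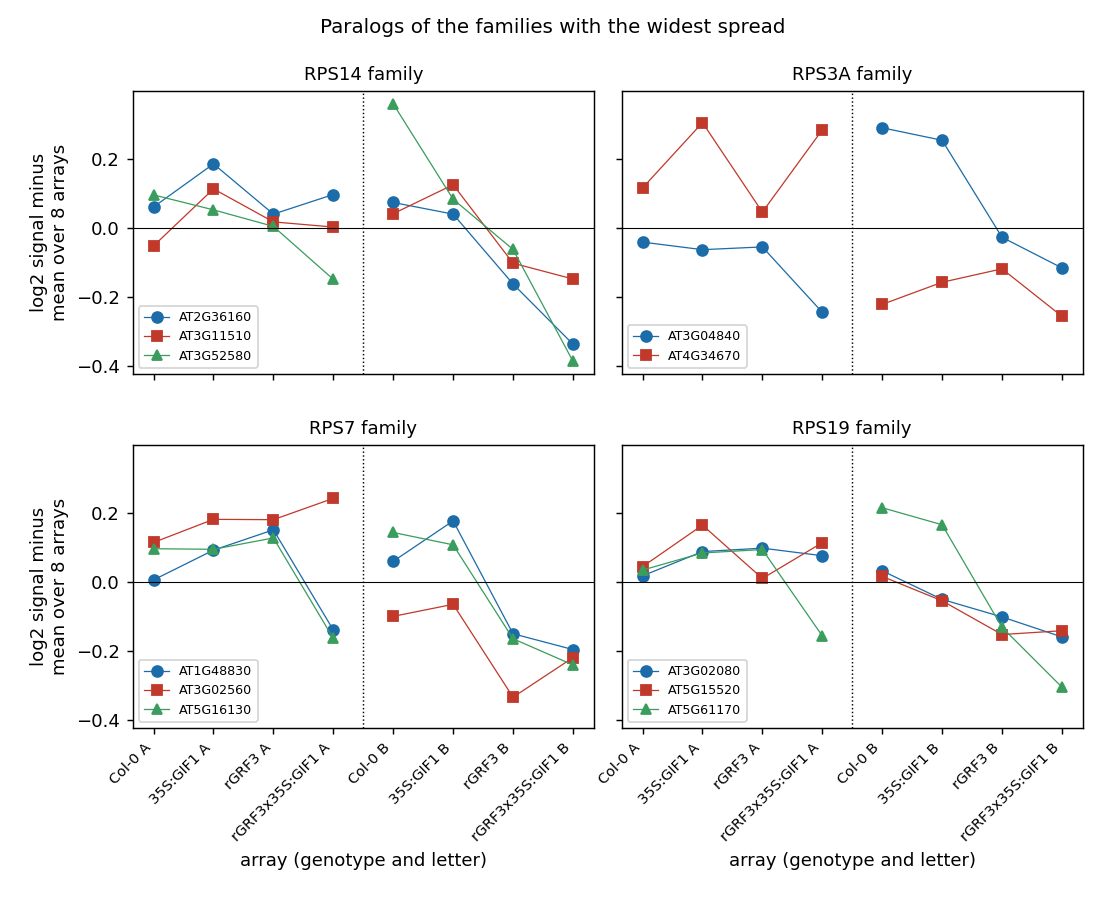
Log2 signal minus the gene's mean over the 8 arrays (vertical axis) for each measured paralog of the RPS14, RPS3A, RPS7 and RPS19 families on each array (horizontal axis), letter A to the left of the dotted line. The RPS3A paralogs change places between the letters, and in the RPS7 and RPS19 families the double line's letter A array lies low for AT1G48830, AT5G16130 and AT5G61170 and not for their paralogs.

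The RPS3A protein lies on the platform near the mRNA exit. Its paralog AT3G04840 had log2 signals of 13.12, 13.10, 13.11 and 12.92 for Col-0, 35S:GIF1, rGRF3 and the double line in letter A and 13.45, 13.42, 13.13 and 13.04 in letter B. AT4G34670 had 13.28, 13.47, 13.21 and 13.45 in letter A and 12.94, 13.01, 13.05 and 12.91 in letter B. In every genotype AT3G04840 had the higher value on the letter B array and AT4G34670 on the letter A array, and of these letter differences, given below, only that of AT4G34670 passed. In the double line minus Col-0 contrast AT3G04840 differed by -0.31 ± 0.18 and AT4G34670 by 0.07 ± 0.26 (SE, n = 2 arrays each).

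RPS7 is a body protein that in yeast is needed for small-subunit assembly. AT1G48830 had log2 signals of 12.16, 12.25, 12.31 and 12.02 in letter A and 12.21, 12.33, 12.004 and 11.96 in letter B, in the same order of genotypes. AT5G16130 had 13.59, 13.59, 13.62 and 13.33 in letter A and 13.64, 13.60, 13.33 and 13.26 in letter B. For these paralogs the double line lay lowest in either letter. AT3G02560 had 13.12, 13.19, 13.19 and 13.25 in letter A and 12.91, 12.94, 12.67 and 12.79 in letter B. Its double line array was the highest of letter A, and its double line minus Col-0 difference was 0.00, against -0.20 for AT1G48830 and -0.32 for AT5G16130.

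RPS19 is a head protein needed for maturation of the small-subunit RNA in yeast and humans. AT5G61170 had log2 signals of 12.53, 12.58, 12.59 and 12.34 in letter A and 12.71, 12.66, 12.36 and 12.19 in letter B, in the order Col-0, 35S:GIF1, rGRF3 and double line. AT3G02080 had 13.66, 13.73, 13.74 and 13.72 in letter A and 13.67, 13.59, 13.54 and 13.48 in letter B. AT5G15520 had 9.62, 9.74, 9.58 and 9.69 in letter A and 9.59, 9.52, 9.42 and 9.43 in letter B. All 3 had both rGRF3-carrying arrays lowest in letter B, and in letter A AT5G61170 alone had the double line lowest.

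The log ratio of the signals of 2 paralogs was compared between groups of 4 arrays for the 19 pairs in the 11 families with at least 2 tested members, by a two-sided exact permutation test chosen after the values were seen. The smallest p this design allows is 0.0286, and p-values were adjusted over 38 tests. Between arrays with and without rGRF3, 0 of 19 pairs reached an unadjusted p under 0.05. With arrays exchanged within each letter only, a form also chosen after the values were seen, the smallest exact permutation p is 0.0556, so this form cannot reach 0.05. At that smallest p was 1 pair, AT1G15930 over AT2G32060 in the RPS12 family, a protein of the beak (adjusted p = 0.44 over the 19 pairs). Its log ratio with rGRF3 was higher by 0.19 in letter A and 0.14 in letter B, and the rGRF3-carrying arrays lay above both others in either letter. Between the letters 4 pairs reached the smallest exact p, 0.0286 (adjusted p = 0.241 for each). Their ratios on the 4 arrays of 1 letter did not overlap with those on the other 4. These were AT3G04840 over AT4G34670 in the RPS3A family, higher in letter B by 0.58 on the log2 scale, and AT1G48830 over AT3G02560 in the RPS7 family, higher by 0.31. The others were AT3G53890 over AT5G27700 in the RPS21 family, higher by 0.31, and AT3G04920 over AT5G28060 in the RPS24 family, higher by 0.22. The share of such pairs among other genes was not computed. Of all tested single probe sets, 15.6% lay lower on all letter B arrays than on all letter A arrays, and 13.6% higher. AT4G34670, AT3G02560 and AT5G28060 also passed between the letters on their own, as given below, so their pairs are not separate results. Near-identical paralogs can share signal on short probes, which could bring their values closer together, and this was not tested.

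Between the letters, with genotype in the model, 3 of the 34 members fell and 1 rose in letter B, against 12.7% and 11.8% of all tested probe sets. The median over the members was -0.06, and 24 lay lower in letter B, against 51.6%. AT5G28060 of the RPS24 family, a protein of the body, had 12.69, 12.95, 12.88 and 12.74 in letter A and 12.41, 12.60, 12.34 and 12.32 in letter B, in the order Col-0, 35S:GIF1, rGRF3 and double line. All 4 letter B arrays lay below all 4 letter A arrays, and the difference was -0.40 ± 0.08 (SE, n = 4 arrays each; adjusted p = 0.0221, limma). AT4G34670 fell by 0.38 (SE 0.09, adjusted p = 0.0343, limma) and AT3G02560 by 0.36 (SE 0.09, adjusted p = 0.0359, limma). AT3G04230 rose by 0.39 (SE 0.08, adjusted p = 0.0235, limma). These 4 calls were not made by an ordinary linear model or without the filter on low signal, and leaving out any 1 of the 8 arrays left between 0 and 2 of them.

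Others that did not pass included AT5G39850, higher in letter B by 0.27 ± 0.08 (adjusted p = 0.0619, limma) and AT3G04840 by 0.20 ± 0.09 (SE, n = 4 arrays each; adjusted p = 0.152, limma). AT5G39850 of the RPS9 family, a body protein at the mRNA entry, had 7.23, 7.49, 7.11 and 7.24 in letter A and 7.67, 7.65, 7.40 and 7.44 in letter B. Its arrays overlapped between the letters. The difference for AT5G27700 was -0.23 ± 0.09 (adjusted p = 0.107, limma). All 4 letter B arrays lay below all 4 letter A arrays for 6 members (15.6% of all tested probe sets) and above them for 2 (13.6%).

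**Figure D4:**
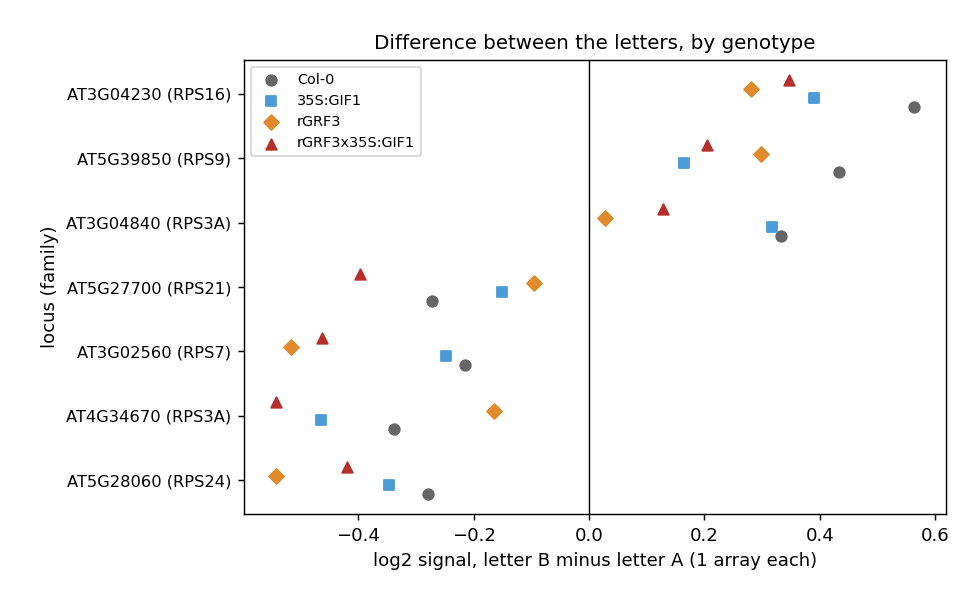
Log2 signal on the letter B array minus that on the letter A array (horizontal axis, 1 array each) in each genotype (symbols) for 7 members among those with the largest letter difference in either direction. The sign is the same in all 4 genotypes for each of these 7 genes, and AT3G04840 comes closest to 0, with 0.03 in rGRF3. The choice of genes by their mean letter difference on these same arrays favours a shared sign.

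The median letter difference of the members was positive or near 0 in the genotypes without rGRF3 and negative in those with it. In Col-0 the median of letter B minus letter A was 0.08, and 25 of 34 members lay higher in B (49.6% of all tested probe sets). In 35S:GIF1 the median was 0.0005, with 17 of 34 higher (49.1%). In rGRF3 it was -0.15, with 7 higher (48%), and in the double line -0.20, with 6 higher (45.3%). The test of this difference between genotypes is the letter by rGRF3 term given above, which passed for 0 members.

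The log2 signals of the tested members ranged from 7.11 to 14.64. Over the 8 arrays the median range of a member was 0.45, and 21 of 34 members had a range under 0.5.

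Other genes of ribosome production and translation were read from lists of which few members had a single-gene probe set. None passed in rGRF3 or the double line against Col-0 in limma, and the values are descriptions. Of 7 tested 40S loci outside the 60, 6 were below Col-0 in the double line, against 51.5% of all tested probe sets, with a median of -0.19. Within letter A 3 of these 7 lay lower (50.2%), with a median of 0.01. Within letter B all 7 did (51.1%), with a median of -0.40. AT1G23410, which encodes ubiquitin fused to a small-subunit protein, had log2 signals of 8.29, 8.23, 8.02 and 7.67 in letter A and 8.82, 8.61, 7.88 and 7.28 in letter B, in the order Col-0, 35S:GIF1, rGRF3 and double line. The double line lay lowest in both letters, and the difference from Col-0 was -1.09 (adjusted p = 0.627, limma). AT2G45710 differed by -0.30, by -0.13 in letter A and -0.46 in letter B.

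All 8 tested ribosome biogenesis genes, of 33 listed, were below Col-0 in the double line, against 51.5% of all tested probe sets. Their median was -0.39, with -0.11 in letter A and -0.57 in letter B. AT3G05060, which encodes a nucleolar protein of the NOP58 kind, differed by -0.60, and by -0.38 without Col-0 B. AT5G60990, a DEAD-box RNA helicase, differed by -0.47, and by -0.24 without the double line's B array. The 4 tested translation factors, of 33 listed, were all lower in the double line (51.5% of all tested probe sets). Among them AT4G20980 of initiation factor eIF3 differed by -0.84, with -0.80 in letter A and -0.89 in letter B. AT5G12110 of elongation factor eEF1B differed by -0.69, but by -0.17 in letter A and -1.21 in letter B, and without Col-0 B the difference was 0.15. The TOR pathway, which promotes ribosome production in growing tissue, was represented by RAPTOR1, at -0.14 (0.01 without Col-0 B), and RAPTOR2, at -0.22 (-0.01 without Col-0 B).

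Of 3 tested nuclear genes for plastid 30S proteins, 2 lay lower in the double line, against 51.5% of all tested probe sets. AT1G64510 differed by -0.23, or by 0.01 without Col-0 A. AT5G24490 had log2 signals of 12.68, 12.57, 12.49 and 12.65 in letter A and 10.80, 11.94, 12.04 and 12.06 in letter B, in the order Col-0, 35S:GIF1, rGRF3 and double line. Its Col-0 B array stood apart from the other 7. The double line minus Col-0 difference of 0.61 was -0.03 in letter A and 1.26 in letter B, and without Col-0 B it was -0.33.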

How the data were processed

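Total RNA from apices was hybridised to 8 ATH1 arrays, 1 per sample. The deposited values are log2 signals, and the submitters' processing notes name GCRMA, which corrects background, normalises and summarises probes, and limma, without versions. Which genome build the annotation used is not given in the sources used here. Decimals number 9 in the Col-0 columns and 3 in the others, for a reason not given. Controls (64 of 22810 probe sets) were left out.

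Group means of all 8 arrays were fitted with limma 3.58.1 in R 4.3.3 (lmFit, contrasts.fit, eBayes), with Benjamini-Hochberg adjustment over the 14005 probe sets at log2 4 or more on at least 2 arrays, called at 0.05. In simulated data without a letter effect, the fit returned the mean size of added changes, which were larger than any double line minus Col-0 difference of the members. Whether it would call changes as small as those of the members was not tested. Plots used Python 3.11.15 with matplotlib 3.10.9. Replicates are arrays whose origin the labels do not give, so p-values measure only the spread between these arrays, which may be technical. The number of arrays limits the precision. Correlations of A minus B deviations between genotypes were 0.59 to 0.75 over 6 pairs, which pairs arrays of the same letter by the data, not by the labels.

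Members, lists and tests were chosen with earlier results of these data known. Values in all arrays are given for members called in any contrast, the 4 largest per direction in double line minus Col-0 and by letter, the 4 families with the widest spread, and up to 6 members on 1 side of Col-0 throughout. Of other lists the 2 largest differences are named, where none passed. AT3G57490, AT3G53890, AT1G23410 and genes named as exceptions fall partly outside this rule or were chosen after their values were seen. The values of some members are not reported here, though the counts and medians over the members include them.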

Additional observations from a re-analysis of the deposited data

How the results depend on the processing

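No 40S gene passed in any of the 6 genotype contrasts with the letters pairing the arrays: the replicate block gave 0 members, as the fit without it did. Quantile normalisation, centring of the arrays, no filter, a trend with robust variance, an ordinary linear model, the arrays of the compared groups alone (for contrasts with Col-0) and leaving out each array in turn also gave 0. The 4 members called between the letters became 0 with no filter and 0 with the ordinary linear model, 3 with quantile normalisation, 6 with a trend and robust variance, and 0 to 2 when 1 array was left out. The interaction median was -0.059 with quantile normalisation, -0.14 with centring and -0.18 to 0.034 with 1 array left out. With 1 array left out, the median ran from -0.0045 to 0.069 for 35S:GIF1, from -0.15 to -0.022 for rGRF3 and from -0.23 to -0.080 for the double line, each against Col-0, and from -0.27 to -0.093 for the double line against 35S:GIF1. That of the double line against rGRF3 ran from -0.17 to 0.034, that of the letter by rGRF3 term from -0.25 to -0.14, and the letter A count of 7 from 9 to 20, because fewer arrays then had to be ordered. The letter B count of 31 was 29 with quantile normalisation and 31 to 34 with 1 array left out. For none of these changed counts was the share of all tested probe sets computed.

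Among the named genes, double line minus Col-0 became -0.014 for AT5G35530 and -0.017 for AT3G02560 with centring and 0.0031 for AT3G02080 with quantile normalisation. With 1 array left out, differences of both signs were reached: -0.20 to 0.34 for AT4G34670, -0.028 to 0.10 for AT3G53890, -0.11 to 0.15 for AT4G25740, -0.13 to 0.14 for AT5G35530 and -0.23 to 0.24 for AT3G02560. The same held for AT2G36160 (-0.41 to 0.030), AT3G11510 (-0.14 to 0.0080), AT3G02080 (-0.18 to 0.051), AT5G15520 (-0.17 to 0.084) and AT3G04230 (-0.47 to 0.10). The cause was not tested. A genotype left with 1 array was assumed to vary like the others. Averaging a gene's probe sets, or leaving out those whose names mark shared sequence, changed nothing, since each member had 1 probe set and none was so marked. With 2 arrays per genotype, a member that did not pass is not shown to be unchanged.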
